A study of Mus musculus with 9 samples.

Results

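Aminoacyl-tRNA synthetases are the enzymes that join each amino acid to its tRNA. The mouse gene table held 38 protein-coding genes of this family among its 53647 genes. Members were chosen by symbol: the one-letter amino acid code followed by "ars", with or without a digit, together with Eprs, Farsa, Farsb and Tarsl2. By the same symbols, 17 genes with the suffix 2 encode mitochondrial enzymes, and the other 21 encode cytosolic enzymes. Gars and Kars, counted as cytosolic here, each serve both compartments from a single gene. All 38 genes had enough reads to be tested, among 13661 tested genes.

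The RNA came from Hepa 1-6, a mouse hepatoma (liver tumour) cell line, in 3 groups of 3 libraries each. The first group carried a control guide (sgControl). The second was a Usp5 knockout (sgUsp5) made with a lentiviral CRISPR construct, and the third a Ythdf1 knockout (sgYthdf1) made with CRISPR/Cas9/EGFP plasmids. Usp5 encodes a deubiquitinase and Ythdf1 a reader of N6-methyladenosine in mRNA, and the study set out to compare gene expression, immune genes in particular, between the lines lacking each. All cells were grown in DMEM with serum, and the knockout lines were selected as single-cell clones. The labels do not say how many clones each group holds, how the control guide was delivered or whether the replicates were separate cultures. The p-values therefore measure only the spread between these libraries, and a difference between clones and an effect of the knockout cannot be told apart.

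Each cytosolic synthetase charges tRNAs for translation on cytosolic ribosomes, and a separate, nuclear-encoded set is imported to charge the tRNAs of the mitochondrion. In mammals, 8 of the cytosolic synthetases (Eprs, Iars, Lars, Qars, Mars1, Kars, Rars and Dars) sit in a multi-synthetase complex, and the other 13 genes are referred to here as free cytosolic synthetases. Many cytosolic synthetase genes are known targets of ATF4, the transcription factor of the amino acid response, which binds with C/EBP partners to elements with the core TGATGNAA.

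Promoters were searched for that core because many of the cytosolic synthetase genes are known targets of ATF4. The letters TGATGNAA were sought on both strands of the 250 bases before each RefSeq start, in the GRCm38.p6 build. Of the 38 members, 28 had a promoter in the table, and 3 of these held a match (10.7%), beside 1056 of 27025 genes overall (3.91%). The 3 matches are shown 5′ to 3′ on the gene's own strand with the matched bases in capitals, and in each the core reads on the opposite strand.

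Aars, chr8:111033708-111033759, plus strand: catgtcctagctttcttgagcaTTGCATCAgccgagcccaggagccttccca

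Gars, chr6:55037949-55038000, plus strand: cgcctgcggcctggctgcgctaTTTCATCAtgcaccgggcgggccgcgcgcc

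Tars, chr15:11399659-11399695, minus strand: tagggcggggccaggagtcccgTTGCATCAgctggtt

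The capitals began 112 bases before the start in Aars (alanine), 30 bases in Gars (glycine) and 15 bases in Tars (threonine). No match says only that these letters are absent from this window. Cars, Hars, Hars2, Lars, Nars, Pars2, Rars, Vars and Wars were not searched.

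Library depth ranged from 24760877 to 42989715 counts, and the 38 synthetase genes took 0.471% to 0.645% of them. The mRNA of each targeted gene was lower in its own knockout, at 54.0% of control for Usp5 and 25.6% for Ythdf1. Loss of the protein cannot be read from these levels. Usp5 stood at 234, 224 and 184 CPM (counts scaled to a common library size, with TMM factors) in control libraries 1 to 3 and at 123, 113 and 110 in the Usp5 knockouts. Ythdf1 stood at 190, 181 and 195 CPM in controls and at 49.2, 45.7 and 49.9 in its knockout. Of the 8 hepatocyte markers, Alb, Afp, Apob, Hnf4a and Trf lay between 157 and 1456 CPM in every library, while Ttr, Apoa1 and Apoh did not exceed 1.26 CPM. The summed markers were 2568 to 2582 CPM in controls, 2987 to 3379 in Usp5 knockouts and 3863 to 4084 in Ythdf1 knockouts. Leukocyte markers summed to at most 8.77 CPM (Cd3e 0 in every library) and endothelial markers to at most 1.23 CPM. The 5 stellate and fibroblast markers summed to 869 to 1282, 1090 to 1421 and 1074 to 1301 CPM in the 3 groups, nearly all of it Dcn, with Lrat at 0. The part of these markers in the synthetase results was not tested. Control replicate 3 had the lowest depth, and 5.91% of its counts fell on mitochondrially encoded genes, beside 2.33% and 2.32% in the other controls.

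In control cells, cytosolic synthetase mRNAs were more abundant per length than mitochondrial ones. In TPM, which scales counts by gene length and by library, the cytosolic genes had a median of 141 and ranged from 18.4 for Tarsl2, a second threonine enzyme, to 394 for Gars. Kars (lysine) followed at 313 and Nars (asparagine) and Sars (serine) at 282 each. The mitochondrial genes had a median of 18.2 TPM and ranged from 5.02 for Nars2 to 55.7 for Iars2 (isoleucine). Apart from Tarsl2, the control mean of every cytosolic gene lay above that of every mitochondrial one. The lowest of these cytosolic means, Yars at 56.9 ± 9.15 TPM (SD, n = 3), was within the spread of Iars2 at 55.7 ± 5.49. Median transcript length (2380 bases cytosolic, 2237 mitochondrial) and median GC content (50.0% and 51.0%) were close.

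In Ythdf1 knockout cells, 13 of the 38 synthetase genes were higher than in control and 7 were lower, with edgeR's quasi-likelihood test at a Benjamini-Hochberg adjusted p under 0.05. Over all genes tested, 46.5% passed in either direction, 23.7% higher and 22.8% lower. The compartments differed in their counts: 12 of 21 cytosolic genes were higher (57.1%) and 3 were lower, with a median log2 fold change of 0.39, while 1 of 17 mitochondrial genes was higher and 4 were lower (23.5%), with a median of -0.12. The share of lower mitochondrial genes was thus close to that of all genes. The median over all genes tested was 0.02. In bulk RNA, a change in the RNA per cell and a change in which cells are present cannot be told apart. When libraries were scaled by size alone, the median over all genes went from 0.02 to -0.12 and the split became 10 higher and 11 lower synthetase genes, with 9 higher and 5 lower among the cytosolic ones. Over all 13661 genes tested, that scaling called 2159 higher and 4185 lower.

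**Figure D1:**
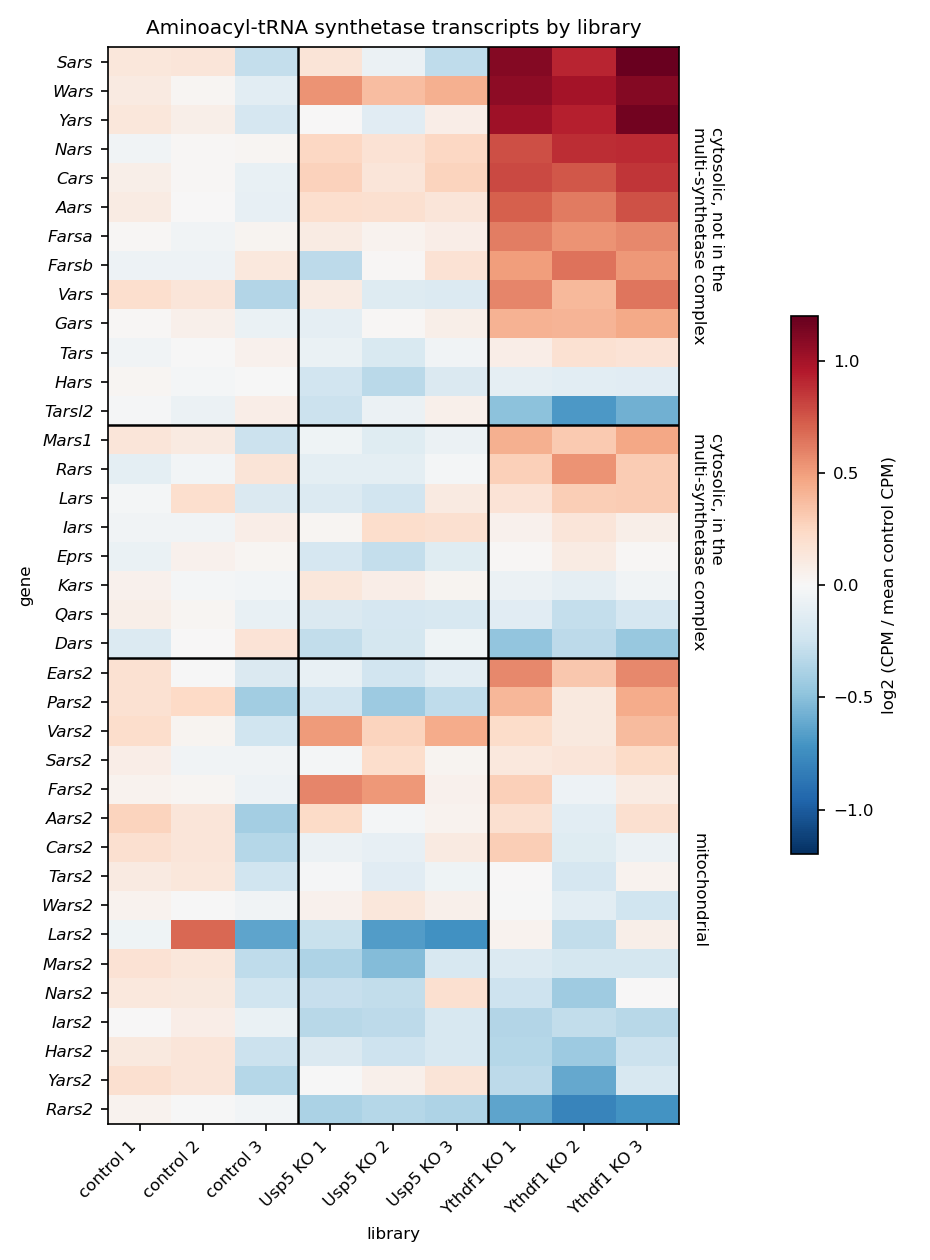
Heat map of the log2 difference of 37 of the synthetase genes (rows) from the mean in control, in each of the 9 libraries (columns). Rows are grouped into cytosolic genes outside the multi-synthetase complex, cytosolic genes in it, and mitochondrial genes. In the 3 Ythdf1 knockout libraries the cytosolic genes have class medians of 0.41, 0.39 and 0.46. The medians are 0.61, 0.62 and 0.64 outside the complex and 0.04, 0.12 and 0.04 in it. The mitochondrial genes have medians of 0.00, -0.20 and 0.01.

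The cytosolic shift was similar in the 3 Ythdf1 knockout libraries. The median log2 difference of the 21 cytosolic genes from their control mean was 0.41, 0.39 and 0.46 in Ythdf1 knockout replicates 1 to 3, beside 0.01, 0.01 and -0.04 in the controls and -0.05, -0.07 and 0.07 in the Usp5 knockouts. For the 17 mitochondrial genes the same medians were 0.00, -0.20 and 0.01 in the Ythdf1 knockouts and 0.12, 0.11 and -0.24 in the controls. The Ythdf1 knockout values lay apart from the rest for the cytosolic genes and within the spread of the controls for the mitochondrial genes. Control replicate 3, the library with the high mitochondrially encoded share, stood 0.36 below the other controls at the median of the mitochondrial synthetases and 0.05 below for the cytosolic ones. Without it, 12 cytosolic genes were still counted higher and 3 lower, with 1 mitochondrial gene higher and 6 lower.

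Sars, which charges serine, had 304, 305 and 227 CPM in control replicates 1 to 3 and 591, 519 and 629 CPM in the Ythdf1 knockouts. The knockout mean was 208% of control (log2 fold change 1.06, SE 0.147, edgeR adjusted p = 3.05e-04). Each knockout library lay well above every control. The tryptophan enzyme Wars had 121, 115 and 103 CPM in controls and 238, 225 and 242 CPM in the knockouts (log2 1.05, SE 0.0836, edgeR adjusted p = 1.36e-05). Its groups did not overlap, and neither did those of Yars, the tyrosine enzyme. Yars had 73.6, 70.0 and 57.9 CPM in controls against 135, 128 and 150 in the knockouts (log2 1.03, SE 0.106, edgeR adjusted p = 5.45e-05). These 3 genes stood at about the same percentage of control, 208% for Sars and Wars and 204% for Yars.

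Nars, for asparagine, had 341, 353 and 356 CPM in controls and 599, 648 and 653 CPM in the Ythdf1 knockouts (log2 0.86, SE 0.0735, edgeR adjusted p = 2.19e-05). Cars, for cysteine, had 244, 235 and 218 CPM in controls and 401, 389 and 422 CPM in the knockouts (log2 0.80, SE 0.0787, edgeR adjusted p = 4.37e-05). Aars, for alanine and with the core element in its promoter above, had 315, 297 and 276 CPM in controls and 487, 454 and 502 CPM in the knockouts (log2 0.70, SE 0.0795, edgeR adjusted p = 9.92e-05). In each of these 3 genes every knockout library was above every control library. Aars shares 14.3% of its exonic bases with Exosc6, on the same strand. Exosc6 had 8.08 CPM in control replicate 2 and 0 counts in the other 8 of the 9 libraries. Reads from the shared bases cannot be told apart.

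**Figure D2:**
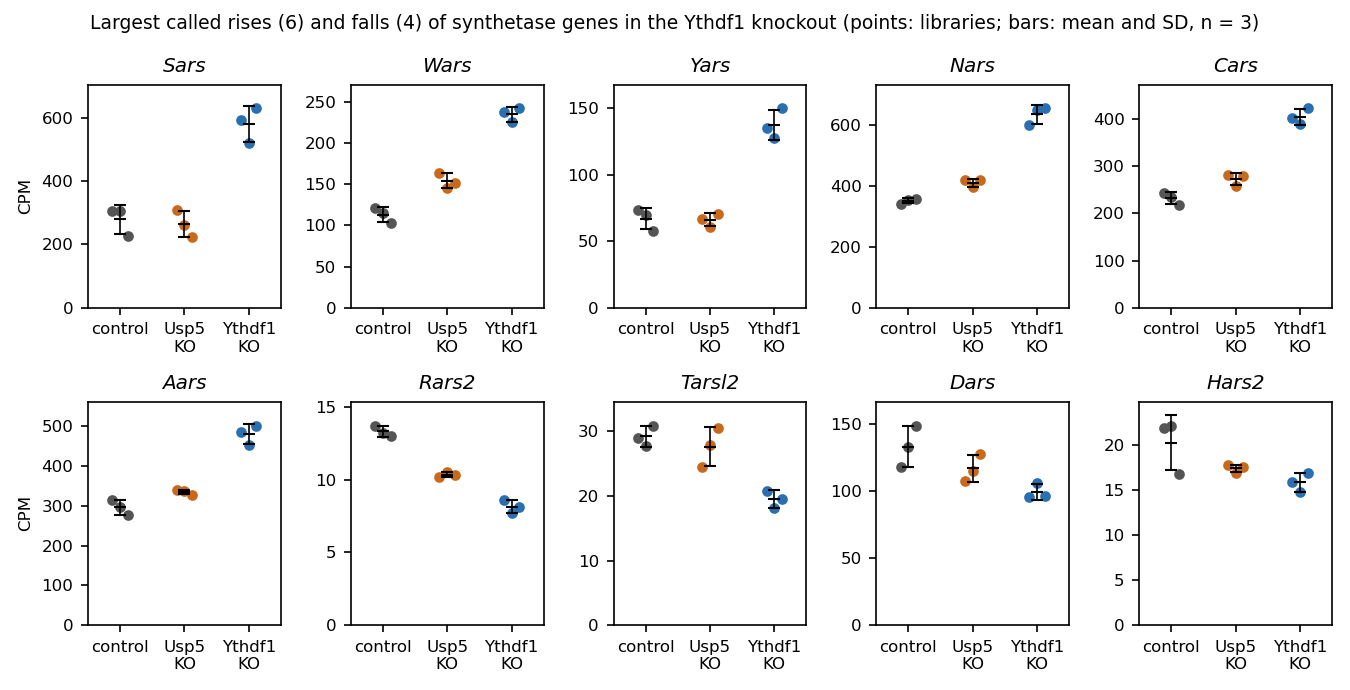
Level in CPM (y axis, from 0) of the 6 synthetase genes with the largest called rises and the 4 with the largest called falls in the Ythdf1 knockout, by group, with each library as a point and bars for the mean and SD (n = 3). Sars, Wars, Yars, Nars, Cars and Aars sit higher in all 3 Ythdf1 knockout libraries than in any control, and Rars2, Tarsl2 and Dars sit lower, while Hars2 overlaps.

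The rest of the cytosolic rises were smaller. Both subunits of the phenylalanine enzyme rose, Farsa by a log2 fold change of 0.58 and Farsb by 0.56, and so did Vars (valine, 0.52), Gars (0.42), Mars1 (methionine, 0.39) and Rars (arginine, 0.38). Rars, Vars and Mars1 depended on single libraries. Rars missed the threshold without Ythdf1 knockout replicate 2 (log2 0.26, edgeR adjusted p = 0.0577). Vars missed it without Ythdf1 knockout replicate 1 (0.47, edgeR adjusted p = 0.0616) or 3 (0.44, edgeR adjusted p = 0.0700), and Mars1 without the same libraries (0.35, edgeR adjusted p = 0.0624, and 0.33, edgeR adjusted p = 0.0712). All 3 also missed it when libraries were scaled by size alone. Mars1 shares 2.0% of its exonic bases with Ddit3, which rose by 2.18 on the log2 scale, and counting by strand is not stated, so reads from the shared bases cannot be told apart. In all, 15 of the 38 members share exonic bases with another gene in the GENCODE M21 annotation, 11 of them with a protein-coding gene. The largest share was 22.9%, for Iars2 with Rab3gap2 (log2 fold change 0.04 in the Ythdf1 knockout), and Farsb shares 9.5% with Sgpp2 (-1.32). Of the promoters with the core element, those of Aars and Gars belong to genes that rose, while Tars had a log2 fold change of 0.14 (edgeR adjusted p = 0.136). Sars, Yars, Farsa, Farsb and Mars1, which also rose, had no match in the window searched.

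Most of the cytosolic rises lay outside the multi-synthetase complex. Of the 13 free cytosolic genes, 10 were higher and 1 lower in the Ythdf1 knockout, with a median log2 fold change of 0.58. Of the 8 complex members, 2 were higher (Mars1 and Rars) and 2 lower (Dars and Qars), with a median of 0.07. The medians of the free set were 0.61, 0.62 and 0.64 in the 3 knockout libraries, and those of the complex set 0.04, 0.12 and 0.04. Beside the 46.5% of all genes called, 84.6% of the free genes and 50.0% of the complex genes were called, and the difference between the 2 sets was not tested. The 4 complex members that did not pass were Lars (0.25), Iars (0.09), Eprs, the joint glutamate and proline enzyme (0.04), and Kars (-0.07). By catalytic fold, 6 of 9 class I and 6 of 11 class II cytosolic genes were higher, with medians of 0.39 and 0.42. When each gene's counts were corrected for GC content and length, Eprs, Iars, Lars and Tars also passed as higher, with log2 fold changes of 0.39, 0.22, 0.43 and 0.34, and Hars (-0.19) and Kars (-0.16) passed as lower.

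Among the cytosolic genes, 3 fell in the Ythdf1 knockout. Tarsl2 had 29.0, 27.8 and 30.9 CPM in controls and 20.8, 18.1 and 19.6 CPM in the knockouts (log2 -0.58, edgeR adjusted p = 0.00105). Dars, for aspartate, had 118, 133 and 149 CPM in controls and 95.8, 106 and 96.6 CPM in the knockouts (log2 -0.42, SE 0.101, edgeR adjusted p = 0.00675). Neither gene's groups overlapped. Dars no longer passed after the GC and length correction (log2 -0.10, edgeR adjusted p = 0.152). Qars, for glutamine, was lower by a small margin (log2 -0.21, edgeR adjusted p = 0.0364) and missed the threshold without control replicate 1 (-0.18, edgeR adjusted p = 0.123), control replicate 2 (-0.20, 0.0932), Ythdf1 knockout replicate 2 (-0.21, 0.0764) or Ythdf1 knockout replicate 3 (-0.24, 0.0710). Hars, for histidine, had a log2 fold change of -0.12 and did not pass.

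Of the mitochondrial genes, Rars2 moved most in the Ythdf1 knockout. This enzyme for mitochondrial arginine tRNA had 13.7, 13.2 and 13.0 CPM in controls and 8.59, 7.70 and 8.08 CPM in the knockouts (log2 -0.71, SE 0.0907, edgeR adjusted p = 1.90e-04). The knockout libraries all lay under the controls, at 61.0% of their mean. Iars2 was also lower (log2 -0.33) but did not pass after the GC and length correction (-0.12, edgeR adjusted p = 0.198). Hars2 had 21.8, 22.1 and 16.7 CPM in controls and 15.8, 14.8 and 16.8 CPM in the knockouts (log2 -0.36, SE 0.114, edgeR adjusted p = 0.0251). Its groups overlapped by control replicate 3, and it missed the threshold without control replicate 1 (-0.30, edgeR adjusted p = 0.0846), control replicate 2 (-0.29, 0.0976), Ythdf1 knockout replicate 1 (-0.39, 0.0576) or Ythdf1 knockout replicate 2 (-0.35, 0.0604). Hars and Hars2 are adjacent on opposite strands and share exonic bases (8.0% of Hars and 4.6% of Hars2), and reads from those bases cannot be told apart.

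Ears2, the mitochondrial glutamate enzyme, was the mitochondrial gene that passed as higher. It had 20.3, 17.7 and 15.7 CPM in controls and 26.5, 22.3 and 26.6 CPM in the Ythdf1 knockouts (log2 0.49, SE 0.112, edgeR adjusted p = 0.00523). The groups did not overlap. The other 12 mitochondrial genes did not pass and ranged from -0.39 for Yars2 to 0.29 for Pars2, the mitochondrial proline enzyme. Yars2 was close to the threshold (edgeR adjusted p = 0.0551). It passed as lower with DESeq2, RLE scaling, library sizes alone, no filter, a stricter filter, and GC and length correction. With limma-voom, only the groups compared or a replicate block it did not. In 2 of the 9 fits leaving out a library Yars2 passed. Without control replicate 3 it passed (log2 -0.54, edgeR adjusted p = 0.00346), as did Mars2 (-0.35, edgeR adjusted p = 0.0131). Lars2 was the most variable member, with 53.2, 89.3 and 35.5 CPM in the controls alone, and its log2 fold change of -0.16 did not pass and ranged from -0.42 to 0.26 over the fits leaving out each library.

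**Figure D3:**
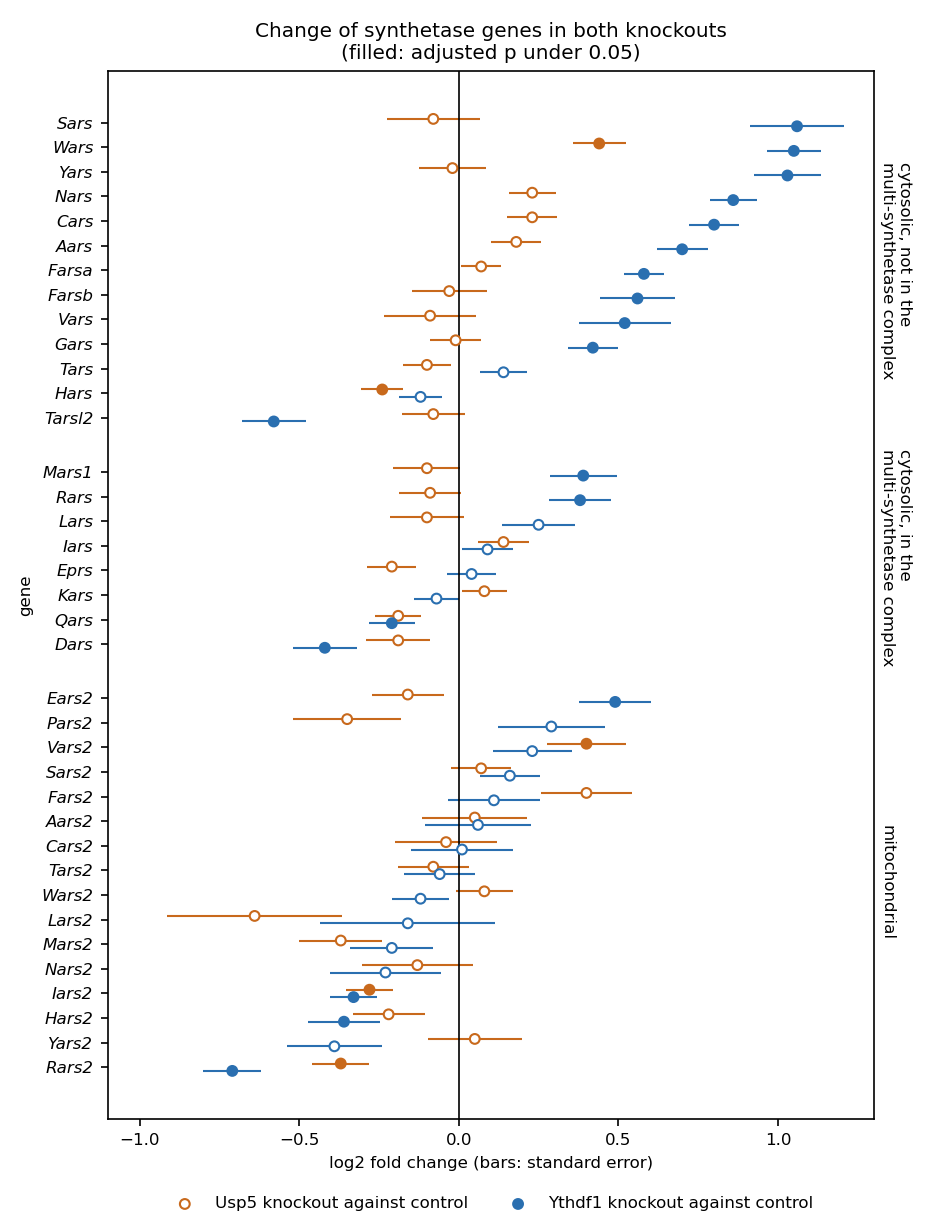
Log2 fold change of 37 of the 38 synthetase genes against control, with bars of 1 standard error, in the Usp5 knockout and in the Ythdf1 knockout. Filled points passed an edgeR adjusted p of 0.05. The cytosolic genes extend to 1.06 in the Ythdf1 knockout, and the Usp5 points mostly lie near 0.

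In Usp5 knockout cells few synthetase genes moved. Of the 38, 2 were higher and 3 lower than in control, or 13.2%, beside 19.8% of all genes tested (9.96% higher and 9.80% lower). In this edgeR fit the share of the family was thus no greater than that of all genes. With DESeq2, 11 of the 38 passed, beside 25.0% of all genes. In the edgeR fit the median log2 fold change was -0.08 for the cytosolic and -0.08 for the mitochondrial genes. Single libraries moved these medians: they were -0.047 and -0.188 without control replicate 3, -0.009 and -0.044 without control replicate 1, -0.008 and -0.045 without control replicate 2, -0.031 and -0.047 without Usp5 knockout replicate 1, and -0.051 and -0.044 without Usp5 knockout replicate 2. None of the 8 complex members passed in the main edgeR fit, although 2 of them had an unadjusted p under 0.05 and 2 passed as lower with DESeq2. In other edgeR fits some passed as lower. With library sizes alone these were Eprs (-0.29, edgeR adjusted p = 0.0363) and Qars (-0.28, 0.0442). Without control replicate 3 they were Mars1 (-0.22, edgeR adjusted p = 0.0448) and Qars (-0.24, 0.0278). Both knockouts were compared with the same control libraries. With scaling by library size alone the median over all genes went from -0.01 to -0.10, and 1 member was higher and 5 were lower. Over all 13661 genes tested, that scaling called 1026 higher and 1833 lower.

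Wars, the largest rise, had 121, 115 and 103 CPM in controls and 164, 146 and 152 CPM in the Usp5 knockouts (log2 0.44, SE 0.0829, edgeR adjusted p = 0.00450). All 3 knockout libraries were above the controls, at 136% of their mean, and the gene passed in every leave-one-out fit. Vars2, the mitochondrial valine enzyme, had 36.6, 32.4 and 26.8 CPM in controls and 45.2, 38.0 and 43.3 CPM in the knockouts (log2 0.40, SE 0.123, edgeR adjusted p = 0.0459). It sat at the threshold, and leaving out any library except control replicate 1 took it over, with adjusted p from 0.0291 to 0.139 across the 9 fits and log2 fold changes from 0.29 to 0.51.

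Of the 3 genes that fell in the Usp5 knockout, Rars2 had the largest change, with 13.7, 13.2 and 13.0 CPM in controls and 10.2, 10.5 and 10.3 CPM in the knockouts (log2 -0.37, SE 0.0891, edgeR adjusted p = 0.0170). Iars2 had 125, 132 and 118 CPM in controls and 99.4, 101 and 109 CPM in the knockouts (log2 -0.28, SE 0.0730, edgeR adjusted p = 0.0237). Hars had 137, 132 and 134 CPM in controls and 115, 108 and 119 CPM in the knockouts (log2 -0.24, SE 0.0663, edgeR adjusted p = 0.0294). The groups did not overlap in any of the 3, yet each lost its call when some single libraries were left out. Rars2 lost it without control replicate 1, control replicate 2 or Usp5 knockout replicate 1, with adjusted p up to 0.0664 over the 9 fits. Iars2 and Hars lost it without any of control replicates 1 and 2, Usp5 knockout replicates 1 and 2 and Ythdf1 knockout replicates 1 and 3, with adjusted p up to 0.104 and 0.125. With no filter on low counts all 3 lost it (edgeR adjusted p = 0.0628 for Rars2, 0.0534 for Iars2 and 0.104 for Hars). Iars2 (0.0828) and Hars (0.0981) also lost it with only the groups compared, and Hars with the replicate block (0.0537). The largest difference that did not pass was that of Lars2 (-0.64, edgeR adjusted p = 0.127). Over the fits leaving out each library it ranged from -0.90 to -0.23, and it passed without control replicate 3 (-0.90, edgeR adjusted p = 0.00886) and with no filter on low counts (-0.65, edgeR adjusted p = 0.00762).

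The rises of the Ythdf1 knockout set against the Usp5 values of the same genes were as follows, with a shared control. Sars had log2 fold changes of 1.06 and -0.08, Yars of 1.03 and -0.02, and Wars of 1.05 and 0.44. Nars had 0.86 and 0.23, Cars 0.80 and 0.23 and Aars 0.70 and 0.18. None of these 3 passed in the Usp5 knockout in the main edgeR fit. There, Nars passed with DESeq2 (adjusted p = 0.00266), limma-voom (0.0382), RLE scaling (0.0481), GC and length correction (0.0130) and without control replicate 3 (0.0340). Cars passed with DESeq2 (adjusted p = 0.0102) and GC and length correction (0.0217), and Aars with that correction (0.0416). For Rars2 the values were -0.71 and -0.37, both of which passed, and for Tarsl2 -0.58 and -0.08.

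The knockouts were then compared directly. Of the 38 genes, 4 were higher and 17 lower in the Usp5 knockout than in the Ythdf1 knockout, beside 48.5% of all genes called (23.3% higher and 25.2% lower). The lower calls were mostly cytosolic: 15 of 21 cytosolic genes were lower and 1 higher, with a median log2 difference of -0.47. Among these lower calls, Eprs (-0.25), Lars (-0.34) and Tars (-0.25) each missed the threshold in 5 of the 9 leave-one-out fits. Of the 17 mitochondrial genes, 3 were higher and 2 lower, with a median of 0.05. Scaling by library size alone gave 7 higher and 14 lower members, beside 3674 higher and 2870 lower among all 13661 genes tested.

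The largest differences were those of Sars and Yars among the cytosolic genes and of Ears2 and Pars2 among the mitochondrial ones. Sars had 308, 262 and 223 CPM in Usp5 knockouts 1 to 3, against the 591, 519 and 629 CPM given above (log2 -1.13, SE 0.147, edgeR adjusted p = 1.80e-04). Yars had 67.0, 60.9 and 70.8 CPM in the Usp5 knockouts (log2 -1.05, SE 0.106, edgeR adjusted p = 3.64e-05). The Usp5 knockout means of Sars and Yars stood at 45.6% and 48.2% of the Ythdf1 knockout. Ears2 had 16.7, 15.2 and 16.3 CPM in the Usp5 knockouts (log2 -0.64, SE 0.113, edgeR adjusted p = 0.00108). Pars2 had 9.21, 7.98 and 8.71 CPM in the Usp5 knockouts and 14.2, 11.6 and 14.7 in the Ythdf1 knockouts (log2 -0.64, SE 0.170, edgeR adjusted p = 0.0105). Every Usp5 knockout library was below every Ythdf1 knockout library in all 4 genes. Pars2 missed the threshold without Usp5 knockout replicate 2 (-0.56, edgeR adjusted p = 0.0523) or Ythdf1 knockout replicate 3 (-0.55, edgeR adjusted p = 0.0545).

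In the other direction, Tarsl2 had 24.5, 27.9 and 30.5 CPM in the Usp5 knockouts and 20.8, 18.1 and 19.6 in the Ythdf1 knockouts (log2 0.50, SE 0.101, edgeR adjusted p = 0.00238). Yars2, the mitochondrial tyrosine enzyme, had 29.8, 31.1 and 33.1 CPM against 24.0, 19.5 and 26.1 (log2 0.43, SE 0.150, edgeR adjusted p = 0.0352). In both genes the groups did not overlap. Rars2 differed by 0.35 (edgeR adjusted p = 0.0105). Yars2 lost its call without Usp5 knockout replicate 2 (0.47, edgeR adjusted p = 0.0653), Usp5 knockout replicate 3 (0.39, 0.0957), Ythdf1 knockout replicate 1 (0.49, 0.0651) or Ythdf1 knockout replicate 2 (0.35, 0.0972).

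A ratio of 2 genes within a library does not depend on how libraries are scaled. For each of 18 pairs of a cytosolic gene with the mitochondrial gene for the same amino acid, the log2 ratio per length was computed in every library, with Fars2 paired to both Farsa and Farsb and Eprs to both Ears2 and Pars2. In the Ythdf1 knockout the mean ratio was higher than in control for 15 pairs and lower for 3, with a median difference of 0.46, and for 12 of them, all higher, the groups did not overlap. Over single genes tested, 57.1% had groups that did not overlap, 29.5% with the knockout higher and 27.6% with it lower. In the Usp5 knockout 9 pairs were higher and 9 lower, with a median difference of 0.03, and 5 pairs did not overlap (4 higher and 1 lower), beside 33.2% of single genes (16.0% higher and 17.2% lower). Set against the Ythdf1 knockout, the Usp5 knockout had 13 pairs without overlap that were lower and 2 that were higher, with a median difference of -0.52, beside 59.0% of single genes (28.6% higher and 30.4% lower). The shares of single genes describe CPM, not ratios, and the ratios were not tested.

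**Figure D4:**
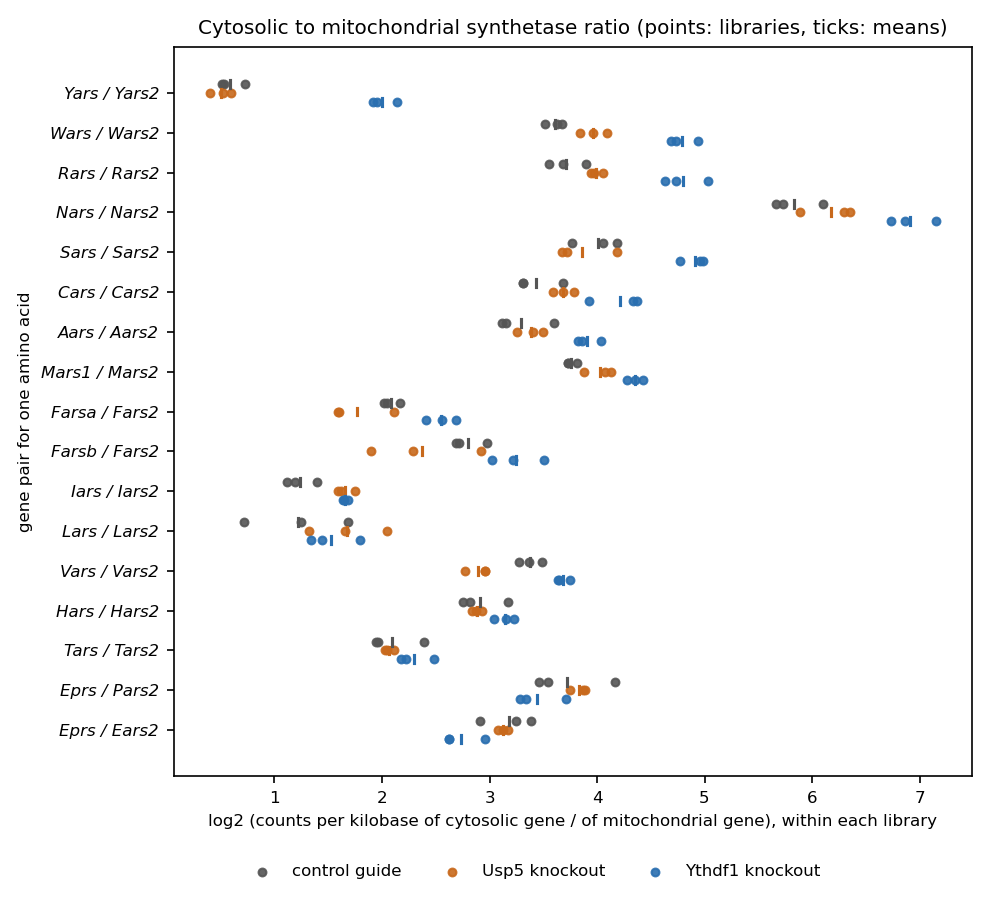
Within-library log2 ratio of a cytosolic synthetase gene to the mitochondrial gene for the same amino acid, per length (x axis), for 17 of the 18 pairs in the 9 libraries, with ticks at group means. The 3 Ythdf1 knockout libraries lie above all controls in 12 pairs, and the gap is widest for tyrosine, where the mean ratio differs by 1.41.

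The tyrosine pair had the widest shift. Yars over Yars2 had log2 ratios of 0.53, 0.51 and 0.73 in controls, 0.60, 0.40 and 0.52 in Usp5 knockouts and 1.92, 2.14 and 1.95 in Ythdf1 knockouts. The Ythdf1 knockout ratios were 1.41 above the control mean, with no overlap, and the Usp5 ratios lay 0.08 below it. Rars over Rars2 had 3.55, 3.68 and 3.90 in controls, 3.97, 3.94 and 4.06 in Usp5 knockouts and 4.63, 5.03 and 4.73 in Ythdf1 knockouts. There the order was control, Usp5 knockout, Ythdf1 knockout, with no overlap between neighbours. Wars over Wars2 shifted by 1.18, Nars over Nars2 by 1.08 and Sars over Sars2 by 0.90 in the Ythdf1 knockout. Eprs over Pars2 (-0.28) and Eprs over Ears2 (-0.45) were lower and overlapped with control. Iars over Iars2 was 0.42 higher in both knockouts, and Vars over Vars2 was 0.30 higher in the Ythdf1 knockout and 0.48 lower in the Usp5 knockout.

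Summed over genes, the cytosolic synthetases held 3455 ± 260 TPM (SD, n = 3) in control, 3204 ± 273 in the Usp5 knockout and 3955 ± 91.2 in the Ythdf1 knockout. The mitochondrial sums were 372 ± 63.9, 324 ± 26.3 and 287 ± 18.0 TPM. TPM did not use the TMM factors, so these sums are on another scale than the fold changes. The factors were 1.074, 1.083 and 1.004 in controls, 0.971 to 1.022 in Usp5 knockouts and 0.953 to 0.959 in Ythdf1 knockouts. The ratio of the 2 sums within a library does not depend on them. The cytosolic to mitochondrial ratio was 8.96, 8.68 and 10.5 in the controls, 9.76, 9.91 and 9.95 in the Usp5 knockouts and 13.1, 14.9 and 13.5 in the Ythdf1 knockouts. Control and Usp5 knockout ranges overlapped, and the Ythdf1 knockout range lay above both. Control replicate 3 had the highest ratio of the controls.

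The partners of the synthetases were counted next, against the 46.5% of all genes called in the Ythdf1 knockout (23.7% higher and 22.8% lower) and the 19.8% called in the Usp5 knockout. Of the 3 scaffold proteins of the complex, Aimp2 (log2 0.95, edgeR adjusted p = 4.31e-05) and Eef1e1 (0.63, 1.03e-04) rose in the Ythdf1 knockout and Aimp1 stood at 0.02. In the Usp5 knockout Aimp2 rose by 0.34 (edgeR adjusted p = 0.0287). None of the 4 genes that complete mitochondrial charging (Qrsl1, Gatb, Gatc and Mtfmt) passed in either knockout with edgeR. In each, 1 of the 4 had an unadjusted p under 0.05, and DESeq2 called 1 in the Usp5 knockout and 0 in the Ythdf1 knockout. Of 4 proofreading genes, Dtd2 rose in the Ythdf1 knockout (0.61, edgeR adjusted p = 0.00168), and Dtd1, which also removes D-amino acids from tRNA, fell in the Usp5 knockout (-0.38, edgeR adjusted p = 0.0249).

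Of 6 genes of the selenocysteine tRNA route, the elongation factor Eefsec rose (0.34) and the kinase Pstk fell (-0.47) in the Ythdf1 knockout, and none passed in the Usp5 knockout with edgeR or DESeq2, where 1 had an unadjusted p under 0.05. The tRNA exporters Xpot and Xpo5 did not pass in either with edgeR or DESeq2, at -0.01 and 0.11 in the Ythdf1 knockout, and neither had an unadjusted p under 0.05. Of 15 tested genes of CCA addition and end processing, 7 rose (46.7%, beside 23.7% of all genes) and 2 fell (13.3%, beside 22.8%) in the Ythdf1 knockout. The rises were led by the RNase P subunits Rpp21 (0.83) and Rpp38 (0.80), while Pop1 of the same enzyme (-0.88, edgeR adjusted p = 3.34e-05) and the mitochondrial tRNA methyltransferase Trmt10c (-0.68, 0.00777) fell. In the Usp5 knockout 1 of the 15 rose, Rpp21, by 0.50. Of 7 splicing genes, Tsen54 (0.50) and the ligase Rtcb (0.37) rose in the Ythdf1 knockout, and Tsen15 rose in the Usp5 knockout (0.32).

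Of the 9 mitochondrial translation factors, 1 rose in the Ythdf1 knockout, the ribosome recycling factor Mrrf (0.49), and 2 fell, the initiation factor Mtif2 (-0.88, edgeR adjusted p = 2.37e-04) and the release factor Mtrf1 (-0.93, edgeR adjusted p = 0.00475). These calls made up 33.3% of the list, beside 46.5% of all genes. None passed in the Usp5 knockout with edgeR, where 2 had an unadjusted p under 0.05 and DESeq2 called 1. Of the 5 amino acid response genes, all rose in the Ythdf1 knockout, Atf4 by 0.69, Asns by 0.89, Ddit3 by 2.18, Trib3 by 3.03 and Chac1 by 3.30, and in the Usp5 knockout Chac1 alone passed (0.49, edgeR adjusted p = 0.0443). Their part in the synthetase rises was not tested.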

How the data were processed

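Bulk mRNA-seq of 9 Hepa 1-6 libraries was used. Per the submitters' processing notes, reads were handled with fastp 0.23.2, STAR 2.7.10a and Salmon 1.9.0 on GRCm39, and the deposited table holds estimated counts per gene with lengths. The annotation release and strand setting are not given in the sources used here. The deposited gene length was used for TPM, the ratios per length, the median lengths and the GC and length correction. TPM did not use the deposited effective length.

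Counts, rounded, went into a quasi-likelihood fit by group over all 9 libraries (edgeR 4.0.16, R 4.3.3) after filterByExpr, which kept 13661 genes, and TMM normalization, with Benjamini-Hochberg adjustment over all tested genes at 0.05. CPM used TMM-scaled library sizes. Steps were tested on simulated data. Alternatives were other scaling and filters, DESeq2 1.42.0, limma 3.58.1 (voom), only the groups compared, a replicate block, GC and length correction (mgcv 1.9.3) and leaving out each library. GC content came from GENCODE M21 transcripts and promoters from RefSeq. No 2 libraries of the same group agreed within counting noise, and pairs from different groups were not checked.

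The genes given by library were up to 6 rises and 4 falls per knockout and up to 4 in each direction between knockouts. Some genes are counted but not reported here by name. Members and lists were chosen with earlier results of these data known.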

Additional observations from a re-analysis of the deposited data

How the results depend on the processing

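No called member changed sign under any alternative run. In the Ythdf1 knockout the 20 called members were 17 to 22 across fits leaving out each library. Against control, the 5 called in the Usp5 knockout became 11 with DESeq2, 9 with GC and length correction, 2 with only the groups compared, and 1 to 11 over the leave-one-out fits. Over all genes, 25.0% were called with DESeq2, 26.3% with that correction, 12.9% with only the groups compared and 20.9% with library sizes alone. Called members were 11 without control replicate 3, beside 31.2% of all genes. They were 1 without control replicate 2 (10.7% of all genes) or Usp5 knockout replicate 1 (13.8%). The 2 cytosolic calls became 4 with library sizes alone, 6 with DESeq2, 5 with GC and length correction, 1 with no filter, 1 with only the groups compared, and 1 to 5 on leaving out a library. The 3 mitochondrial calls became 5 with DESeq2, 1 with only the groups compared, and 0 to 6 on leaving out a library, with 0 (edgeR) without control replicate 2 (4 at an unadjusted p under 0.05) and without Usp5 knockout replicate 1 (5). Between the knockouts, the 5 mitochondrial calls became 8 with GC and length correction and 3 to 5 on leaving out a library. Over all genes, the 2700 called in the Usp5 knockout became 1756 with only the groups compared, 4371 without control replicate 3, 1736 without control replicate 1, 1494 without control replicate 2 and 1626 without Usp5 knockout replicate 2. The cause of these changes was not tested.

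Replicate numbers were not treated as pairing the libraries: same-numbered libraries had correlations of deviations from -0.26 to 0.3, and 7 of 18 best matches shared a number. With the replicate block, calls were 3 (1 cytosolic) in the Usp5 knockout, 19 in the Ythdf1 knockout and 20 between knockouts. The median of the mitochondrial genes in the Ythdf1 knockout was 0.005 without control replicate 2 and -0.170 without control replicate 3.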
